A study of Mus musculus with 6 samples.

Results

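The set described here holds 54 genes for enzymes that place or remove marks on histones and for ATP-driven chromatin remodellers outside the SWI/SNF family, with the non-catalytic subunits Eed and Suz12 of the H3K27 methyltransferase complex. The genes were taken by name from a list that was drawn up with earlier results of these data known, and all 54 were among the 17558 genes of the deposited table. A filter on low counts kept 53 of them among 12643 tested genes; only Smarca1 was removed. RNA was sequenced from C2C12, a permanent mouse myoblast cell line whose cells stop dividing and fuse into myotubes when serum is lowered. The 6 libraries fall into 3 groups of 2: cells stably carrying a scrambled hairpin RNA (shScr, genotype given as WT), a hairpin against the Pkm1 splice isoform of pyruvate kinase (shPkm1, given as Pkm1 Knockdown) or a hairpin against the Pkm2 isoform (shPkm2, given as Pkm2 Knockdown). All groups carried a hairpin construct and were harvested 48 h after the switch to medium with low horse serum and an insulin, transferrin and selenium supplement, so no undifferentiated and no hairpin-free cells were compared. The stated question is how each isoform bears on myoblast differentiation. Whether each line was a pool or 1 clone, and whether the replicates were separate cultures, is not given in the sources used here, so p-values measure the spread between these libraries, which may be technical.

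DNA in the nucleus is wound around histones, and the tails of histone H3 and H4 carry methyl and acetyl groups that enzymes add and remove. Methylation of H3 at lysine 27 by the Polycomb complex PRC2 and at lysine 9 by the Suv39 and Ehmt enzymes goes with silent genes, whereas acetylation, and methylation at lysine 4 or 36, goes with active ones. In myoblasts, Polycomb and class II histone deacetylases are known to hold muscle genes silent, and acetyltransferases such as p300 and PCAF work with MyoD when these genes are switched on.

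The targeted gene was examined first. Pkm, summed over transcripts, read 3019 and 3473 CPM in the shScr libraries, 1998 and 2186 CPM in shPkm1 and 3658 and 3794 CPM in the libraries labelled shPkm2 (CPM, estimated counts scaled to library size with TMM factors). The Pkm1 isoform stood at 1004 and 959 CPM in shScr, 312 and 296 CPM in shPkm1, and 312 and 329.6 CPM in those labelled shPkm2. The Pkm2 isoform stood at 1974 and 2470, 1641 and 1872, and 3318 and 3410 CPM in the same order. The Pkm2 isoform was therefore not lower in the libraries labelled shPkm2 (log2 fold change 0.63, adjusted p 0.0656, edgeR quasi-likelihood test with Benjamini-Hochberg adjustment), which goes against their label, and they are called by that label throughout. Library totals were 18216896 to 19796036 estimated counts. Replicates correlated at r = 0.988 to 0.994 across genes, which are not independent, and differed by more than counting noise, most in shScr (chi-square per degree of freedom 31, against 6.01 and 6.67). The summed TPM (the authors' abundance unit, scaled to transcript length and depth) of 8 muscle differentiation genes was 21018 to 27845 in shScr, 9677 to 10469 in shPkm1 and 304 to 308 in the shPkm2-labelled libraries. That of 8 proliferation genes was 224 to 283, 475 to 502 and 1249 to 1308. The cell state thus differed between all 3 groups, and its part in the values of the chromatin genes was not tested; in bulk RNA, fewer cells of a type and less RNA per cell cannot be told apart. Of 11 markers of endothelial, macrophage, fat, epithelial and Schwann cells, 9 were in the table and 4 of these had at most 3 counts in every library; Epcam was at 0 in every one. Their summed TPM was 0.59 and 0.64 in shScr, 2.08 and 1.61 in shPkm1, and 0.83 and 0.84 in the shPkm2-labelled libraries. The 1 marker that passed the filter, the macrophage gene Csf1r, held 9 and 11, 32 and 32, and 2 and 5 counts and was called at 1.47, -1.81 and -3.27; the part of other cells in the results was not tested.

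Of the 53 tested genes, 35 passed the test between shPkm1 and shScr, 20 higher and 15 lower. The background was high, since 63.1% of all tested genes passed (31.8% higher and 31.4% lower), so the share of chromatin genes is close to that of the table. In the shPkm2-labelled libraries against shScr, 37 passed, 27 higher and 10 lower, where 68.0% of all tested genes passed (33.9% higher and 34.2% lower). In the direct contrast of the shPkm2-labelled libraries with shPkm1, 35 passed, 26 higher and 9 lower, where 53.0% of all tested genes passed (25.7% higher and 27.3% lower). The median log2 fold change of the 53 genes was 0.03, 0.24 and 0.26 in these contrasts, beside -0.00, 0.01 and 0.00 over all tested genes. The 2 comparisons with shScr share the same controls, so their values are set side by side and their likeness is not a result. The groups did not overlap for 41, 46 and 48 of the 53 genes, against 81.0%, 83.9% and 79.8% of all tested genes. Changes of at least 2-fold with a call numbered 4 higher and 1 lower in shPkm1 (7.55% and 1.89% of the 53 genes, beside 12.6% and 9.41% of all tested genes). They numbered 10 and 1 in the shPkm2-labelled libraries (18.9% and 1.89%, beside 14.1% and 13.7%) and 5 and 1 in the direct contrast (9.43% and 1.89%, beside 7.07% and 11.5%). The median absolute log2 fold change was 0.35, 0.45 and 0.36, beside 0.49, 0.59 and 0.38 over all tested genes.

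The split into higher and lower moved with the scaling. With library totals and no composition factor, 25 genes were higher and 8 lower in shPkm1, 36 and 5 in the shPkm2-labelled libraries, and 34 and 6 in the direct contrast, beside 40.5% and 21.0%, 48.2% and 21.4%, and 33.9% and 21.3% of all tested genes, and this scaling moved the median of all genes by 0.19, 0.33 and 0.14. With a correction for transcript length, added after the data had been seen, the splits were 13 and 23, 18 and 16, and 25 and 12, beside 29.8% and 33.3%, 30.6% and 35.9%, and 25.6% and 28.6% of all tested genes. The medians of the 53 genes were then -0.13, -0.01 and 0.20, beside -0.04, -0.05 and -0.01 over all tested genes; with library totals they were 0.23, 0.57 and 0.39. Under TMM, DESeq2 size factors, library totals and the length correction alike, 13 genes were called higher and 8 lower in shPkm1, where 27.6% and 20.6% of all tested genes were. In the shPkm2-labelled libraries the same count was 17 higher and 5 lower, beside 28.2% and 21.3% of all genes. In the direct contrast it was 25 higher and 6 lower, beside 24.0% and 21.3%. A gene called under all 4 scalings is described below as called under each scaling, which says nothing of its size: library totals raise every value by about the shift of the median, and the length correction lowers the rises of long genes.

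**Figure D1:**
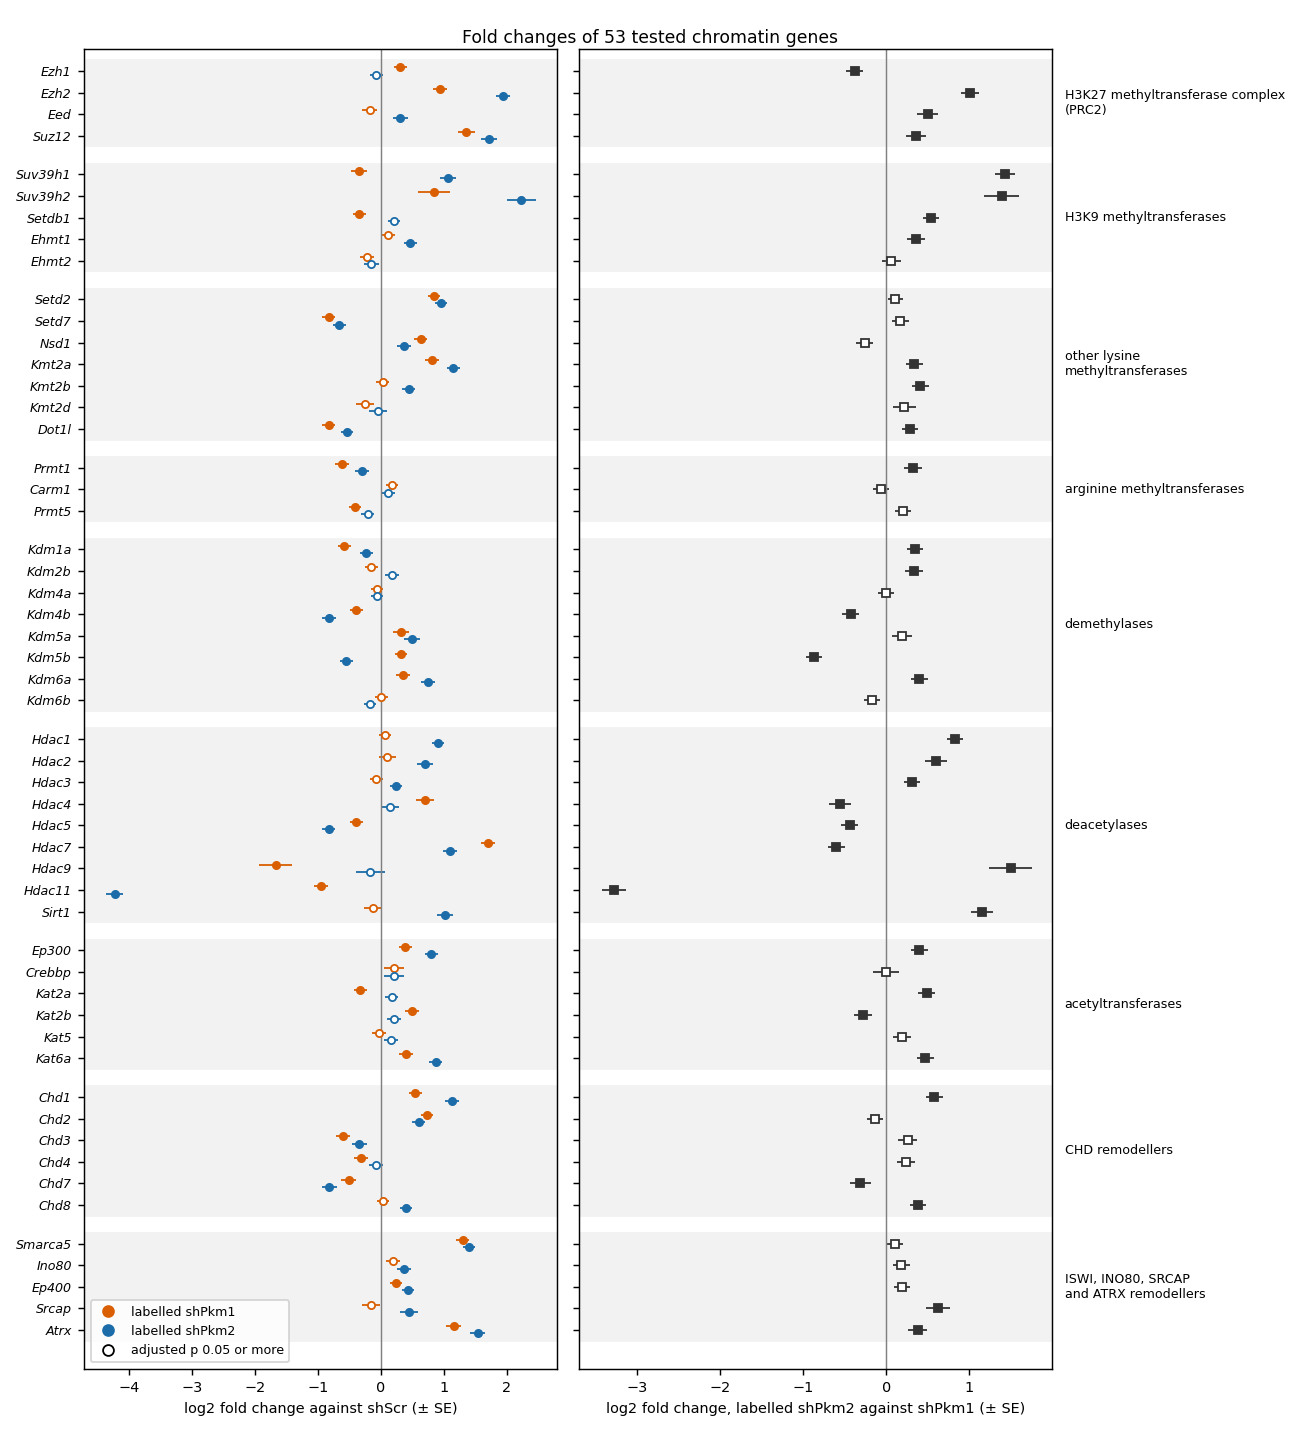
Log2 fold changes (± SE) of the 53 tested chromatin genes, grouped by role, against shScr on the left and between the shPkm2-labelled libraries and shPkm1 on the right; filled points passed the edgeR test at an adjusted p under 0.05. Hdac11 lies far below 0 in the shPkm2-labelled libraries, at -4.23 against shScr, while Suv39h2, Ezh2 and Suz12 lie highest, at 2.23, 1.94 and 1.72.

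Levels of different genes can be compared in TPM only. In shScr, Prmt1 was the most abundant of the 54 genes at 303 ± 28.1 TPM (SD, n = 2), ahead of Chd4 at 119 ± 11.4 TPM. Chd3 (97.8 ± 14.3 TPM), Ehmt2 (96.2 ± 20.4 TPM) and Prmt5 (95.5 ± 0.24 TPM) followed and did not differ beyond their spread. Among deacetylases the order in shScr was Hdac2 (80.5 ± 11.2 TPM), Hdac3 (69.3 ± 0.0707 TPM), Hdac1 (61.7 ± 5.29 TPM) and Hdac11 (60.5 ± 0.0495 TPM), with Hdac1 and Hdac11 within their spread. At the lower end stood Hdac9 at 1.1 ± 0.262 TPM and Suv39h2 at 0.655 ± 0.191 TPM. Smarca1, one of the paired ISWI ATPases, held 0 counts in 4 libraries and 1 and 2 counts in the other two, at or below a floor of 3 counts, so no comparison of it was made.

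PRC2 methylates H3 at lysine 27. Ezh2 and Ezh1 are its alternative catalytic subunits, Ezh2 being the form of dividing cells, while Suz12 and Eed hold the core together and Eed binds the mark. Of these 4 genes, 3 rose and none fell in shPkm1 (median log2 fold change 0.62), and 3 rose and none fell in the shPkm2-labelled libraries (median 1.02). That is 75% called each time, beside 63.1% and 68.0% of all tested genes (31.8% and 33.9% higher). Ezh2 (chromosome 6, 47530274 to 47595270, GRCm38) read 21.2 and 18 CPM in shScr, 39.5 and 35.5 CPM in shPkm1 and 77.3 and 73.1 CPM in the shPkm2-labelled libraries. The 3 groups did not overlap and stood in that order. By the edgeR quasi-likelihood test Ezh2 was 1.91-fold higher in shPkm1 than in shScr (log2 fold change 0.94, SE 0.117, adjusted p 1.55e-05) and 3.84-fold higher in the shPkm2-labelled libraries (1.94, SE 0.116, adjusted p 7.96e-09). It also differed 2.01-fold between the hairpin groups (1.01, SE 0.109, adjusted p 4.83e-06), and was called under each scaling in all 3 contrasts.

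Suz12 (chromosome 11, 79993106 to 80034123) read 10.6 and 13.1 CPM in shScr, 33.2 and 27.9 CPM in shPkm1, and 39.4 and 38.8 CPM in the shPkm2-labelled libraries. Both hairpin groups lay above every shScr library, by 2.56-fold (log2 fold change 1.36, SE 0.134, edgeR adjusted p 1.82e-06) and 3.29-fold (1.72, SE 0.132, adjusted p 1.01e-07). The direct contrast was smaller, at 0.36 (adjusted p 0.0234), and did not pass without shPkm1 replicate 2 (0.24, adjusted p 0.223) or either of the shPkm2-labelled libraries (0.34 and 0.36, adjusted p 0.12 and 0.094). Ezh1 (chromosome 11, 101191115 to 101226463) moved little: 37.0 and 41.7 CPM in shScr, 49.4 and 48.2 CPM in shPkm1, and 37.5 and 37.7 CPM in the shPkm2-labelled libraries. Its rise in shPkm1 (0.31, SE 0.102, adjusted p 0.0179) did not pass with the length correction (0.15, adjusted p 0.169), without shScr replicate 1 (0.23, adjusted p 0.0835) or without either shPkm1 library (0.31 and 0.33, adjusted p 0.081 and 0.0553). In the shPkm2-labelled libraries Ezh1 did not pass against shScr (-0.07, adjusted p 0.574; -0.28, adjusted p 0.0185, with the length correction), and it was lower there than in shPkm1 (-0.38, SE 0.101, adjusted p 0.00686), although not with library totals (-0.25, adjusted p 0.0855). Eed was at -0.18 in shPkm1 and did not pass, but was called at -0.33 without shScr replicate 2. It was called at 0.50 (edgeR adjusted p 0.00406) in the direct contrast and at 0.31 (adjusted p 0.0364) in the shPkm2-labelled libraries against shScr. The latter value ranged from 0.17 to 0.47 with 1 library left out, and its call was lost in 5 of those fits.

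In TPM, Ezh2 made up 48.1% and 41.2% of the Ezh1 and Ezh2 sum in the shScr libraries, 56.4% and 54.3% in shPkm1, and 76.9% and 75.9% in those labelled shPkm2. The groups did not overlap; no test was run on this share, since the smallest p that an exact permutation test allows at this group size is 0.333.

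The promoter windows of Ezh2 and Suz12 are shown because these core subunits were both higher than shScr in both hairpin groups and each window holds a letter match to a site of E2F, the factor family that drives genes of the S phase. Windows run from 250 bases before to 50 after an annotated start (RefSeq, GRCm38.p6), and capitals mark the E2F letters, or CAGCTG where present. The Ezh2 window is chr6:47594981-47595280, minus strand, and the Suz12 window is chr11:79992856-79993155, plus strand, both printed 5′ to 3′ along the gene.
Ezh2: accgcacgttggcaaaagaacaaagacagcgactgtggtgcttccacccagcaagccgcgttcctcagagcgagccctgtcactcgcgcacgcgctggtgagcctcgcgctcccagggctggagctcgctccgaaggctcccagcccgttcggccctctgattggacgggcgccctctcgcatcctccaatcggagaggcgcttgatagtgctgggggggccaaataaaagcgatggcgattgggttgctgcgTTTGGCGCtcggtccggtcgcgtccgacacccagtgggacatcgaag
Suz12: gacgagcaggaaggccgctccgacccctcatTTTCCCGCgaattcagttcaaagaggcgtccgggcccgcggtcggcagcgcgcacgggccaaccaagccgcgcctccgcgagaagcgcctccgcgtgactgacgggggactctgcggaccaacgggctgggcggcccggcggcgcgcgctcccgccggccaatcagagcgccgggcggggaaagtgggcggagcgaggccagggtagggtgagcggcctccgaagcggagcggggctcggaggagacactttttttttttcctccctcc
The match lies at position 4 in Ezh2 and at position -219 in Suz12, counted from the start. The letters searched were TTTCCCGC, TTTGGCGC, TTTCGCGC and TTTGCCGC on both strands. RefSeq windows were found for 41 of the 54 genes, 53 windows in all, and 4 of these (7.55%) held a match, beside 3.88% of 12877 windows of tested genes and 2.26% of all 32851 windows. The others were in Suv39h1 and Kat2a, which were called lower than shScr in shPkm1 (-0.35 and -0.33). In the shPkm2-labelled libraries Suv39h1 was called higher (1.07) and Kat2a did not pass (0.17). Other motifs searched on both strands were the CHR letters TTTGAA and TTCGAA (11.3% of the 53 windows, 14.1% for tested genes), CAGCTG, the E-box form that MyoD binds (18.9% and 15.7%), and CACGTG (13.2% and 9.73%). A letter match is a description of the sequence and not evidence of binding.

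**Figure D2:**
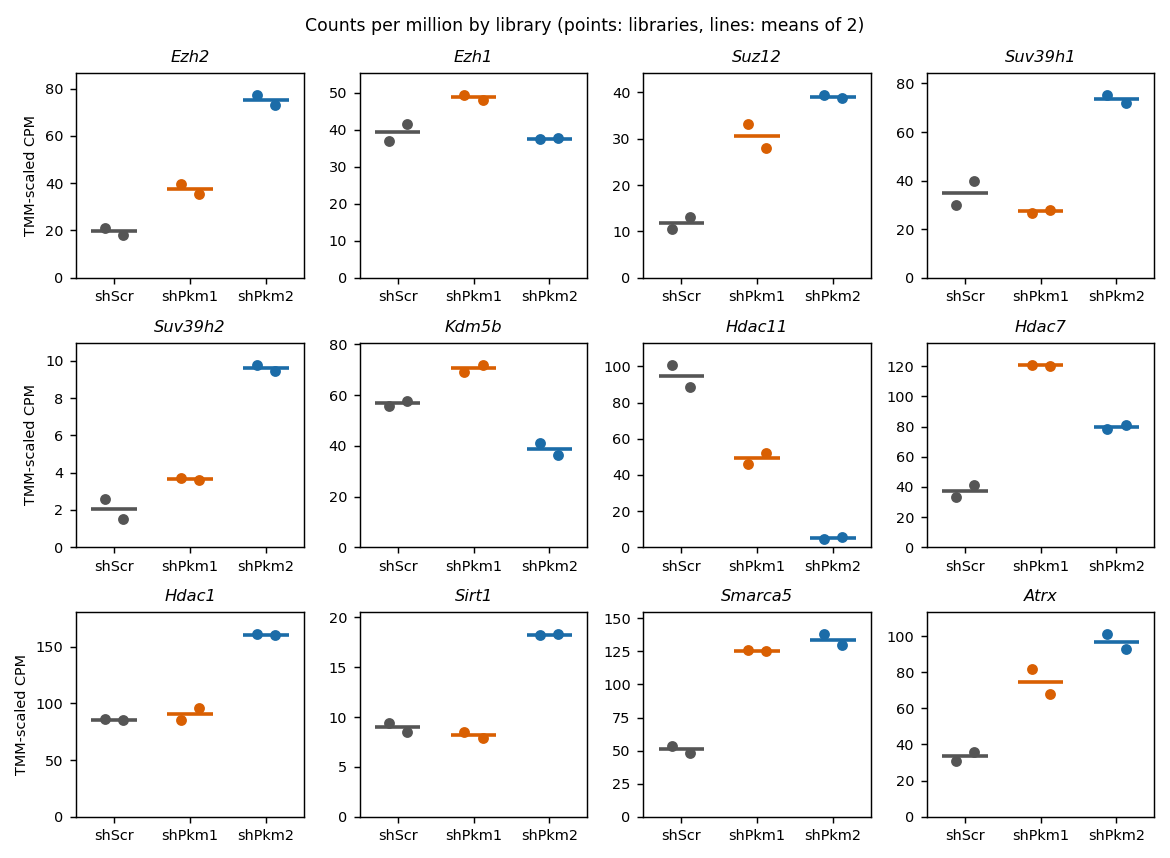
TMM-scaled CPM of 12 chromatin genes in each library (points) with the mean of the 2 libraries of a group (lines); every vertical axis starts at 0. Ezh2 steps up from shScr to shPkm1 to the shPkm2-labelled libraries, Suz12, Smarca5 and Atrx are high in both hairpin groups, and Suv39h1, Hdac1 and Sirt1 are highest in the shPkm2-labelled libraries.

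Among the H3K9 methyltransferases, Suv39h1 and Suv39h2 make the trimethyl mark of heterochromatin, Setdb1 silences retroelements and euchromatic genes, and Ehmt1 with Ehmt2 (G9a) makes the dimethyl mark. In shPkm1, 1 of the 5 rose and 2 fell (median -0.22), and in the shPkm2-labelled libraries, 3 rose and none fell (median 0.47). In the direct contrast 4 rose and none fell (median 0.54). The shares called were 60%, 60% and 80%, beside 63.1%, 68.0% and 53.0% of all tested genes. Suv39h1 (chromosome X, 8061171 to 8074760) read 30.1 and 39.7 CPM in shScr, 26.8 and 27.9 CPM in shPkm1 and 75.2 and 71.8 CPM in the shPkm2-labelled libraries. The last group stood clear of all other libraries, 2.69-fold above shPkm1 in the edgeR test (log2 fold change 1.43, SE 0.124, adjusted p 6.13e-07) and at 1.07 (SE 0.123, adjusted p 4.73e-06) against shScr. The fall in shPkm1 was small (-0.35, SE 0.128, adjusted p 0.0273). It did not pass without shScr replicate 2 (-0.14, adjusted p 0.331), without either shPkm1 library (-0.31 and -0.38, adjusted p 0.161 and 0.0903), or with library totals (-0.16, adjusted p 0.337).

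Suv39h2 (chromosome 2, 3455815 to 3474986) was scarce, with 2.60 and 1.53 CPM in shScr, 3.73 and 3.59 CPM in shPkm1, and 9.79 and 9.45 CPM in the shPkm2-labelled libraries. It had the largest rise of the 53 genes in the shPkm2-labelled libraries, 4.70-fold over shScr (log2 fold change 2.23, SE 0.231, edgeR adjusted p 1.77e-06), and was 2.63-fold above shPkm1 (1.39, SE 0.207, adjusted p 8.35e-05). Its lowest library held 27 counts, and limma on log2(FPKM + 1) gave 1.31 for the first value. In shPkm1 the value was 0.84 (adjusted p 0.0113), which did not pass without shScr replicate 2 (0.49, adjusted p 0.107) or shPkm1 replicate 1 (0.83, adjusted p 0.0536). Setdb1 was lower in shPkm1 (-0.34, edgeR adjusted p 0.00992, and -0.52 with the length correction). That call was lost with library totals (-0.14), with limma on FPKM (-0.13 and -0.14) and without either shPkm1 library (-0.33 each time). Setdb1 did not pass in the shPkm2-labelled libraries (0.21, but called at 0.53 with library totals), and the direct contrast gave 0.54 (adjusted p 0.000429). Ehmt1 was higher in the shPkm2-labelled libraries than in shScr (0.47, but 0.18 and no call with the length correction) and shPkm1 (0.36). The latter value ranged from 0.28 to 0.42 with 1 library left out, and its call was lost in 3 of those fits. Ehmt2, the most abundant of the 5, did not pass in the 3 contrasts (-0.22, -0.15 and 0.06), but was called lower than shScr in both with the length correction (-0.34, adjusted p 0.02, and -0.34, adjusted p 0.0207).

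The windows of Suv39h1 and Suv39h2 are shown because these genes had the largest rises of the group in the direct contrast. The Suv39h1 window is the second of 2 annotated starts, chrX:8074312-8074611, minus strand, with the reverse complement of TTTGCCGC in capitals; it is printed because it holds a match to the E2F letters, and the other window of this gene (chrX:8074711-8075010) holds none. The Suv39h2 window is chr2:3474937-3475236, minus strand, with CAGCTG in capitals and no match to the E2F letters.
Suv39h1: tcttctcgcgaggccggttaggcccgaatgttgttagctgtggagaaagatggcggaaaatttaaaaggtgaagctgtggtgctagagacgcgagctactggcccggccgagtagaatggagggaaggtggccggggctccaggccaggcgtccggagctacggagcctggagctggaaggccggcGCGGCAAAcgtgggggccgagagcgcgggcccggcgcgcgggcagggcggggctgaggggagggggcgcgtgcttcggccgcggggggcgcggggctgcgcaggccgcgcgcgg
Suv39h2: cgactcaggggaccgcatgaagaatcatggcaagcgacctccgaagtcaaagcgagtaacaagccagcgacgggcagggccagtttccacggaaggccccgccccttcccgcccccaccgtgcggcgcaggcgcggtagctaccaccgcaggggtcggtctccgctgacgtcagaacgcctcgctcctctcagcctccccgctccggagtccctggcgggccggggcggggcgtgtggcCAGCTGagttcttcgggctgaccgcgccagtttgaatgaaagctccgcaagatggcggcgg
The match in Suv39h1 lies at position -64 from that start and the CAGCTG of Suv39h2 at position -11.

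The other lysine methyltransferases comprise Kmt2a, Kmt2b and Kmt2d for H3K4, Setd2 and Nsd1 for H3K36, Dot1l for H3K79 and Setd7, a monomethyltransferase of H3K4 and of non-histone proteins. In shPkm1, 3 of the 7 rose and 2 fell, and in the shPkm2-labelled libraries, 4 rose and 2 fell. The shares called were 71.4% and 85.7%, beside 63.1% and 68.0% of all tested genes. Setd2 (chromosome 9, 110532500 to 110618633) read 38.7 and 36.7 CPM in shScr, 67.8 and 67.1 CPM in shPkm1 and 73.9 and 71.7 CPM in the shPkm2-labelled libraries. Both hairpin groups lay above shScr, with log2 fold changes of 0.84 (SE 0.0959, edgeR adjusted p 6.83e-06; 0.50 with the length correction) and 0.95 (SE 0.0956, adjusted p 1.38e-06), and they did not pass against each other (0.11). Kmt2a (chromosome 9, 44803355 to 44881352) read 40.6 and 42.4 CPM, 76.3 and 69.7 CPM, and 99.2 and 85.6 CPM in the same order. It was 2.23-fold higher in the shPkm2-labelled libraries than in shScr (1.15, SE 0.107, adjusted p 6.36e-07; 0.58 with the length correction) and at 0.81 in shPkm1 (adjusted p 2.44e-05). Nsd1 was higher in shPkm1 (0.63, adjusted p 0.000202; 0.25 with the length correction) and in the shPkm2-labelled libraries (0.37, adjusted p 0.00739), the latter at -0.10 and without a call under the length correction.

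Setd7 and Dot1l moved the other way. Setd7 (chromosome 3, 51515318 to 51560823) fell from 98.6 and 90.8 CPM in shScr to 56.5 and 50.3 CPM in shPkm1 and 63.3 and 56.8 CPM in the shPkm2-labelled libraries. Its log2 fold changes were -0.83 (SE 0.105, edgeR adjusted p 1.77e-05) and -0.66 (SE 0.104, adjusted p 8.95e-05), the latter moving to -0.33 with library totals and -1.06 with the length correction, with a call each time. Dot1l (chromosome 10, 80755101 to 80795461) read 109 and 100.3 CPM in shScr, 61.0 and 56.4 CPM in shPkm1, and 73.9 and 69.7 CPM in the shPkm2-labelled libraries. The fall in shPkm1 was -0.83 (SE 0.099, adjusted p 9.74e-06) and was called under each scaling, while the one in the shPkm2-labelled libraries (-0.54, adjusted p 0.000269) did not pass with library totals (-0.21, adjusted p 0.0794). Kmt2b did not pass in shPkm1 (0.03; -0.30 with the length correction) and was called in the shPkm2-labelled libraries at 0.44 against shScr (0.01 with the length correction) and 0.41 against shPkm1 (0.34, adjusted p 0.0664, without shPkm2 replicate 1). Kmt2d passed in no contrast (-0.26, -0.04 and 0.22), but was called at -0.76 and -0.64 against shScr with the length correction.

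Of the arginine methyltransferases, which act on histones H3 and H4 and on many RNA-binding proteins, 2 of 3 fell in shPkm1 and 1 fell in the shPkm2-labelled libraries, and none was called higher against shScr except Carm1 under other scalings. The shares called were 66.7% and 33.3%, beside 63.1% and 68.0% of all tested genes. Prmt1 (chromosome 7, 44976755 to 44986420), the main asymmetric dimethyltransferase, read 277 CPM in both shScr libraries, 169 and 192 CPM in shPkm1 and 209 and 241 CPM in the shPkm2-labelled libraries. The fall in shPkm1 was -0.62 (SE 0.108, edgeR adjusted p 0.000255) and was called under each scaling. In the shPkm2-labelled libraries it was -0.30 (adjusted p 0.0241), which turned to 0.03 with library totals and did not pass with the length correction (-0.12, adjusted p 0.282) or without shPkm2 replicate 1 (-0.20, adjusted p 0.255). Prmt5, which makes the symmetric mark, was lower in shPkm1 (-0.41, adjusted p 0.00292; -0.21 and no call with library totals). Carm1, a coactivator in muscle, did not pass in the 3 contrasts (0.18, 0.12 and -0.06), but was called higher than shScr with library totals (0.37, adjusted p 0.00898, and 0.44, adjusted p 0.00246) and with limma on log2(FPKM + 1) (0.37 and 0.44).

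Among the 8 demethylases, 3 rose and 2 fell in shPkm1, and 2 rose and 3 fell in the shPkm2-labelled libraries. That is 62.5% called each time, beside 63.1% and 68.0% of all tested genes. Kdm5b (chromosome 1, 134560178 to 134632878), a demethylase of H3K4, read 55.8 and 57.7 CPM in shScr, 69.2 and 72.0 CPM in shPkm1 and 41.1 and 36.3 CPM in the shPkm2-labelled libraries. The shPkm1 libraries lay above shScr and those labelled shPkm2 below it, with no overlap. The direct contrast was 1.83-fold lower (log2 fold change -0.87, SE 0.101, edgeR adjusted p 9.10e-06) and was called under each scaling. Against shScr the rise in shPkm1 (0.32, SE 0.0999, adjusted p 0.0143) did not pass with the length correction (0.05, adjusted p 0.66) or without shPkm1 replicate 2 (0.29, adjusted p 0.0851). The fall in the shPkm2-labelled libraries (-0.55, SE 0.102, adjusted p 0.000306; -0.91 with the length correction) did not pass with library totals (-0.23, adjusted p 0.0799) or with limma on FPKM (-0.20 and -0.23, adjusted p 0.135 and 0.127).

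Kdm4b (chromosome 17, 56325970 to 56403774), which acts on H3K9, read 101 and 100.4 CPM in shScr, 69.9 and 83.2 CPM in shPkm1 and 59.7 and 54.2 CPM in the shPkm2-labelled libraries. It was 1.76-fold lower than shScr in the last group (log2 fold change -0.82, SE 0.108, edgeR adjusted p 1.71e-05; -0.49 with library totals) and at -0.39 in shPkm1 (adjusted p 0.00619), where the length correction gave -0.59 and the call was lost with library totals (-0.20, adjusted p 0.134) and without shPkm1 replicate 1 (-0.26, adjusted p 0.125). The direct contrast (-0.43, SE 0.108, adjusted p 0.00461) did not pass without shPkm1 replicate 2 (-0.30, adjusted p 0.0938) or shPkm2 replicate 2 (-0.37, adjusted p 0.0627). Kdm6a (UTX), which removes the PRC2 mark, was higher in shPkm1 (0.35, adjusted p 0.0142; 0.09 and no call with the length correction) and in the shPkm2-labelled libraries (0.75, adjusted p 4.01e-05; 0.41 with the length correction). Its relative Kdm6b passed in no contrast (0.01 in shPkm1 and -0.17 in both others), but was called at -0.28, -0.54 and -0.26 with the length correction. Kdm1a (LSD1), the flavin-dependent H3K4 demethylase, was lower in shPkm1 (-0.58, adjusted p 0.000215, called under each scaling; -0.38 with library totals). In the shPkm2-labelled libraries Kdm1a stood at -0.23 (edgeR adjusted p 0.0485), and the value turned to 0.09 with library totals. The call was lost with the DESeq2 test (-0.24, adjusted p 0.0508) and in 5 of the fits that left out 1 library (range -0.31 to -0.15). Kdm5a was called at 0.32 (adjusted p 0.0443; -0.08 with the length correction) and 0.50 (adjusted p 0.00309; 0.00 with the length correction) against shScr. Against shScr Kdm2b did not pass (-0.15 and 0.18; called at -0.31 in shPkm1 with the length correction and at 0.51 in the other group with library totals). It passed in the direct contrast (0.34, adjusted p 0.0181), although not without shPkm2 replicate 1 (0.23, adjusted p 0.214). Kdm4a did not pass in the 3 contrasts. In shPkm1 its value was -0.06 and was called at -0.24 with the length correction; its value in the shPkm2-labelled libraries was -0.06, and it was called at 0.26 with library totals and at -0.31 with the length correction.

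Deacetylases showed the widest range. Class I enzymes (Hdac1, Hdac2, Hdac3) are the catalytic cores of the NuRD, Sin3, CoREST and NCoR complexes; class IIa enzymes (Hdac4, Hdac5, Hdac7, Hdac9) bind MEF2 and repress its targets; Hdac11 is the class IV enzyme; and Sirt1 is an NAD-dependent deacetylase. Of these 9 genes, 2 rose and 3 fell in shPkm1 (63.1% of all tested genes were called), and 5 rose and 2 fell in the shPkm2-labelled libraries (68.0% of all tested genes). All 9 passed the direct contrast, 5 higher and 4 lower, where 53.0% of all tested genes passed.

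Hdac11 (chromosome 6, 91156670 to 91174692) read 101 and 88.9 CPM in shScr, 45.9 and 52.4 CPM in shPkm1, and 4.57 and 5.53 CPM in the shPkm2-labelled libraries. The groups did not overlap and fell in that order. It was 1.93-fold lower in shPkm1 (log2 fold change -0.95, SE 0.113, edgeR adjusted p 9.84e-06) and 18.8-fold lower in the shPkm2-labelled libraries (-4.23, SE 0.14, adjusted p 3.11e-11), the largest change of any of the 53 genes in any of the 3 contrasts. Between the hairpin groups it differed 9.73-fold (-3.28, SE 0.14, adjusted p 5.89e-10). Each contrast was called under each scaling, and the lowest library held 97 counts. In TPM it went from 60.5 ± 0.0495 (SD, n = 2) in shScr, next to Hdac1, to 4.66 ± 0.94 in the shPkm2-labelled libraries. The Hdac11 window around an annotated start is shown because of the size of this fall (chr6:91156565-91156864, plus strand, RefSeq, GRCm38.p6); capitals mark CAGCTG, at position -104 from that start.
Hdac11: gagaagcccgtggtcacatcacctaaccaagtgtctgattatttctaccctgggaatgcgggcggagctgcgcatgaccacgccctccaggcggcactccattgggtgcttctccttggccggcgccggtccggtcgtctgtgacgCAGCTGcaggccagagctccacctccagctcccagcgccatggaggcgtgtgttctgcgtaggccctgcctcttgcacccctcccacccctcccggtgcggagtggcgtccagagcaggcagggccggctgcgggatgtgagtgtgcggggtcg
The same letters were present in 18.9% of the 53 windows and 15.7% of the windows of tested genes.

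The class IIa genes did not move as a block. Hdac7 (chromosome 15, 97792661 to 97844502) read 33.4 and 41.1 CPM in shScr, 121 and 120.2 CPM in shPkm1, and 78.6 and 80.8 CPM in the shPkm2-labelled libraries. It had the largest rise of the 53 genes in shPkm1, 3.24-fold (log2 fold change 1.70, SE 0.111, edgeR adjusted p 4.78e-08), was at 1.10 in the shPkm2-labelled libraries (adjusted p 1.45e-06) and lower there than in shPkm1 (-0.60, SE 0.106, adjusted p 0.000342), each time under each scaling. Hdac4 (chromosome 1, 91928779 to 92195702) read 16.4 and 20.6 CPM, 29.5 and 30.5 CPM, and 22.6 and 18.2 CPM in the same order. It was called higher than shScr in shPkm1 (0.70, adjusted p 0.000706; 0.37 with the length correction) and not in the other group (0.14, adjusted p 0.396; called at 0.46 with library totals). The direct contrast (-0.56, SE 0.135, adjusted p 0.0035) did not pass without shPkm2 replicate 2 (-0.42, adjusted p 0.0604) or with limma on FPKM (-0.33 and -0.43).

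Hdac5 (chromosome 11, 102195747 to 102230172) fell instead, from 148 and 137 CPM in shScr to 103 and 115 CPM in shPkm1 and 79.3 and 80.7 CPM in the shPkm2-labelled libraries. The log2 fold changes were -0.39 (adjusted p 0.00397; -0.19 and no call with library totals) and -0.83 (SE 0.0997, edgeR adjusted p 7.09e-06; -0.51 with library totals), and the direct contrast gave -0.44 (SE 0.0995, adjusted p 0.00209). Without shPkm1 replicate 1 the value in shPkm1 was -0.30 and did not pass (adjusted p 0.0781). Hdac9 (chromosome 12, 34047580 to 34917095), which is induced by MEF2 in muscle, read 3.55 and 4.24 CPM in shScr, 1.33 and 1.11 CPM in shPkm1, and 3.53 and 3.39 CPM in the shPkm2-labelled libraries. It was low in shPkm1 only, 3.19-fold below shScr (-1.67, SE 0.264, adjusted p 0.000114) and 2.83-fold below the shPkm2-labelled libraries (1.50, SE 0.262, adjusted p 0.00032). Its lowest library held 22 counts, and limma on log2(FPKM + 1) gave -0.44 and 0.52. As a share of the TPM of the 8 Hdac genes, class IIa made up 18.7% and 21.1% in shScr, 25.5% and 25.7% in shPkm1, and 15.8% and 15.3% in the shPkm2-labelled libraries, with no overlap and no test.

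The class I genes Hdac1 and Hdac2 and Sirt1 were high in the shPkm2-labelled libraries, while the class I gene Hdac3 moved less. Hdac1 (chromosome 4, 129516104 to 129542646) read 85.8 and 85.6 CPM in shScr, 84.9 and 95.5 CPM in shPkm1, and 161 and 160.4 CPM in the shPkm2-labelled libraries. It did not pass in shPkm1 (0.07, adjusted p 0.537; called at 0.27 with library totals) and was 1.78-fold above shPkm1 in the direct contrast (0.83, SE 0.0975, edgeR adjusted p 9.59e-06), and at 0.91 against shScr. Hdac2 gave 0.10 (adjusted p 0.518; called at 0.31 with library totals), 0.70 (adjusted p 0.000384) and 0.60 (adjusted p 0.00188) in the 3 contrasts. Hdac3 gave -0.07, 0.24 (edgeR adjusted p 0.0472) and 0.31 (adjusted p 0.0184). The call at 0.24 was lost with DESeq2 size factors (0.23, adjusted p 0.0564) and in 5 of the fits that left out 1 library (range 0.15 to 0.33). The call at 0.31 was lost in 4 of those fits (range 0.27 to 0.34). Sirt1 (chromosome 10, 63319005 to 63339035) read 9.44 and 8.53 CPM, 8.52 and 7.94 CPM, and 18.2 and 18.3 CPM. The last pair lay above all other libraries, 2.21-fold over shPkm1 (1.15, SE 0.132, adjusted p 8.51e-06) and at 1.02 over shScr (adjusted p 1.54e-05), called under each scaling, while shPkm1 against shScr gave -0.13 (adjusted p 0.459).

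**Figure D3:**
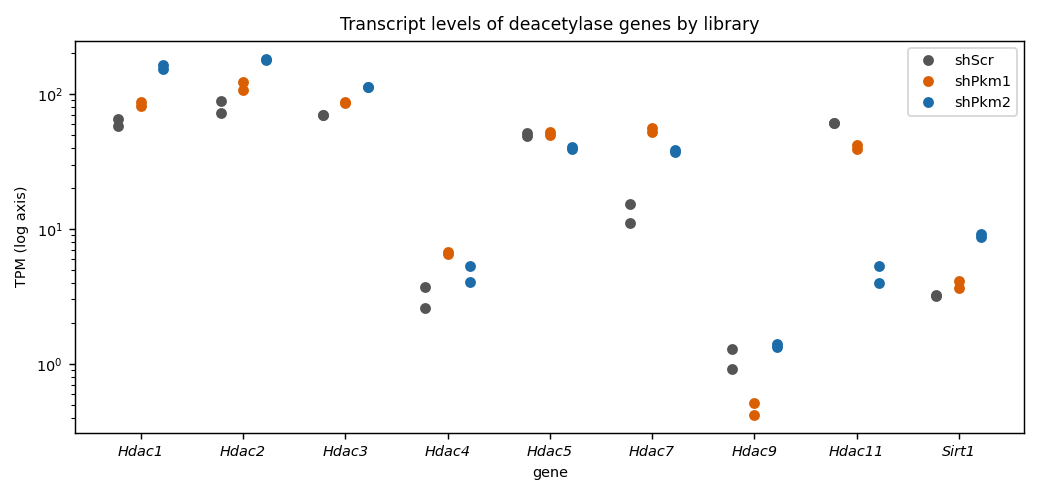
TPM of the 9 deacetylase genes in each library on a log axis, with 2 points per group. Hdac11 drops from about the level of Hdac1 in shScr to 4.66 TPM in the shPkm2-labelled libraries, Hdac9 is low in shPkm1 alone among the groups, and Hdac7 is high in both hairpin groups; TPM is used here to compare genes, and tests rest on counts.

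The acetyltransferases comprise Ep300 and Crebbp, coactivators that acetylate H3K27; Kat2a and Kat2b (PCAF), which act in the SAGA-type complexes; and the MYST enzymes Kat5 and Kat6a. In shPkm1, 3 of the 6 rose and 1 fell, and in the shPkm2-labelled libraries, 2 rose and none fell. The shares called were 66.7% and 33.3%, beside 63.1% and 68.0% of all tested genes. Ep300 rose in shPkm1 (0.39, edgeR adjusted p 0.00599; 0.04 and no call with the length correction) and the shPkm2-labelled libraries (0.80, adjusted p 1.90e-05, called under each scaling; 0.35 with the length correction). Kat6a followed with 0.40 (adjusted p 0.00548; 0.09 and no call with the length correction) and 0.87 (adjusted p 8.11e-06, called under each scaling; 0.47 with the length correction). Kat2b was higher in shPkm1 (0.49, edgeR adjusted p 0.00174, and 0.32 with the length correction). Kat2a was lower there (-0.33, adjusted p 0.0132), a call lost with library totals (-0.14), with limma on FPKM (-0.12 and -0.13) and without shPkm1 replicate 1 (-0.22). Kat2b made up 20.4% and 17.9% of the TPM of the pair in shPkm1, 11.9% and 12% in shScr, and 12.5% and 12.6% in the shPkm2-labelled libraries. In TPM, Kat2b went from a mean of 6.05 in shScr to 11.1 in shPkm1, while Kat2a did not fall (44.7 and 46.8). Crebbp (0.21, 0.21 and 0.00) and Kat5 (-0.03, 0.16 and 0.19) did not pass in the 3 contrasts. With library totals, calls in the shPkm2-labelled libraries against shScr were also made for Crebbp (0.53, adjusted p 0.014), Kat5 (0.48, adjusted p 0.00163), Kat2a (0.49, adjusted p 0.00117) and Kat2b (0.54, adjusted p 0.00141).

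CHD remodellers slide or assemble nucleosomes: Chd1 and Chd2 at transcribed genes, Chd3 and Chd4 in NuRD, Chd7 and Chd8 at enhancers and promoters. In shPkm1, 2 of the 6 rose and 3 fell, and in the shPkm2-labelled libraries, 3 rose and 2 fell. That is 83.3% called each time, beside 63.1% and 68.0% of all tested genes. Chd1 was at 0.55 (edgeR adjusted p 0.000592) and 1.13 (adjusted p 7.28e-07) against shScr and at 0.58 in the direct contrast (adjusted p 0.000383), called under each scaling. Chd2 was at 0.73 (adjusted p 3.44e-05, called under each scaling; 0.37 with the length correction) and 0.60 (adjusted p 0.000138; 0.14 and no call with the length correction). Chd3 (chromosome 11, 69343273 to 69369499) read 490.2 and 537 CPM in shScr, 317 and 359.7 CPM in shPkm1, and 436 and 376 CPM in the shPkm2-labelled libraries. It was 1.52-fold lower in shPkm1 (-0.60, SE 0.116, adjusted p 0.000579, called under each scaling), and its value of -0.34 in the other group (adjusted p 0.0194) was -0.01 with library totals and -0.73 with the length correction. Chd4 was at -0.32 in shPkm1 (edgeR adjusted p 0.0222, and -0.59 with the length correction). That call was lost with library totals (-0.13), with limma on FPKM (-0.12) and without either shPkm1 library (-0.24 and -0.39). In the shPkm2-labelled libraries Chd4 was at -0.08, and was called at 0.24 with limma on log2(FPKM + 1) and at -0.45 with the length correction. Chd7 (chromosome 4, 8690402 to 8868449) read 34.7 and 31.5 CPM, 23.6 and 22.8 CPM, and 20.5 and 16.9 CPM. Both hairpin groups lay below shScr, at -0.51 (adjusted p 0.00223; -0.27 and -0.36 and no call with limma on FPKM) and -0.82 (SE 0.121, adjusted p 4.43e-05; -0.50 with library totals and -1.30 with the length correction). Chd8 did not pass in shPkm1 (0.03), where it was called lower with the length correction (-0.31, adjusted p 0.00868). In the shPkm2-labelled libraries it was called at 0.40 against shScr (-0.03 with the length correction) and at 0.38 in the direct contrast (0.31 and no call without shPkm2 replicate 1).

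The remaining remodellers are Smarca5 (SNF2H, the ISWI ATPase), Ino80, Ep400 and Srcap (which handle the variant H2A.Z) and Atrx (which deposits H3.3 in heterochromatin). None was called lower in a contrast of the main test, and 3, 5 and 2 of the 5 tested rose. The shares called were 60%, 100% and 40%, beside 63.1%, 68.0% and 53.0% of all tested genes (31.8%, 33.9% and 25.7% higher). Under the length correction Ep400 turned to -0.16 and -0.07 against shScr without a call, and Srcap, at -0.16 in shPkm1, was called lower there (-0.56, adjusted p 0.00267). Smarca5 (chromosome 8, 80699943 to 80739459) read 53.7 and 48.0 CPM in shScr, 126 and 125 CPM in shPkm1, and 138 and 129.8 CPM in the shPkm2-labelled libraries. The hairpin groups lay 2.47-fold (log2 fold change 1.30, SE 0.101, edgeR adjusted p 2.27e-07) and 2.64-fold (1.40, SE 0.101, adjusted p 5.45e-08) above shScr and did not pass against each other (0.10, adjusted p 0.423). Atrx (chromosome X, 105797615 to 105929372) read 31.1 and 35.8 CPM, 81.5 and 67.8 CPM, and 101 and 92.9 CPM. It rose 2.23-fold in shPkm1 (1.16, SE 0.119, adjusted p 2.65e-06; 0.77 with the length correction) and 2.90-fold in the shPkm2-labelled libraries (1.54, SE 0.119, adjusted p 1.05e-07), both called under each scaling. Ino80 (0.37), Ep400 (0.43) and Srcap (0.45) were higher than shScr in the shPkm2-labelled libraries, but not with the length correction (0.01, -0.07 and -0.05).

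Long transcripts were over-represented in the set, and fold change moved with length across the table. The effective length (transcript length open to reads) had a median of 4816 bases over the 53 genes, from 1251 to 19828, against 2783 bases over all tested genes, and 44 of the 53 lay above that. In 8 classes of rising length, the median log2 fold change of all tested genes went from -0.29 to 0.27 in shPkm1 and from -0.34 to 0.36 in the shPkm2-labelled libraries, and only from -0.04 to 0.10 in the direct contrast. Between the shScr libraries it went from 0.09 to -0.03. The longest class held 25 of the 53 genes, with medians of 0.24, 0.40 and 0.22 beside 0.27, 0.36 and 0.10 for all genes of that class. The next class held 10, with medians of 0.02, 0.21 and 0.35 beside 0.18, 0.24 and 0.06. Single genes of the longest class lay on both sides of these medians, from Atrx (1.16 and 1.54 against shScr) and Kmt2a (0.81 and 1.15) to Setd7 (-0.83 and -0.66) and Chd7 (-0.51 and -0.82). With the length correction Ep400, Srcap, Kmt2b and Chd8 lost their rises against shScr, as did Kdm5a in both comparisons (-0.08 and 0.00). Calls of a rise were also lost in shPkm1 by Ep300 (0.04), Kat6a (0.09), Kdm6a (0.09), Kdm5b (0.05) and Ezh1 (0.15). In the shPkm2-labelled libraries they were also lost by Ino80 (0.01), Nsd1 (-0.10), Chd2 (0.14) and Ehmt1 (0.18). Other long genes kept a call in both comparisons, among them Kmt2a (0.34 and 0.58), Setd2 (0.50 and 0.51) and Chd1 (0.23 and 0.71) as rises and Dot1l (-1.13 and -0.92), Setd7 (-1.14 and -1.06) and Chd7 (-0.89 and -1.30) as falls. Ezh2, Suz12, Suv39h2, Hdac7 (shPkm1 and shPkm2-labelled libraries), Smarca5 and Atrx kept their rises. The Spearman correlation of length with log2 fold change over the 53 genes was 0.28, 0.13 and -0.13, given as a description with no p, since genes share libraries. The part of library preparation in this trend was not tested.

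**Figure D4:**
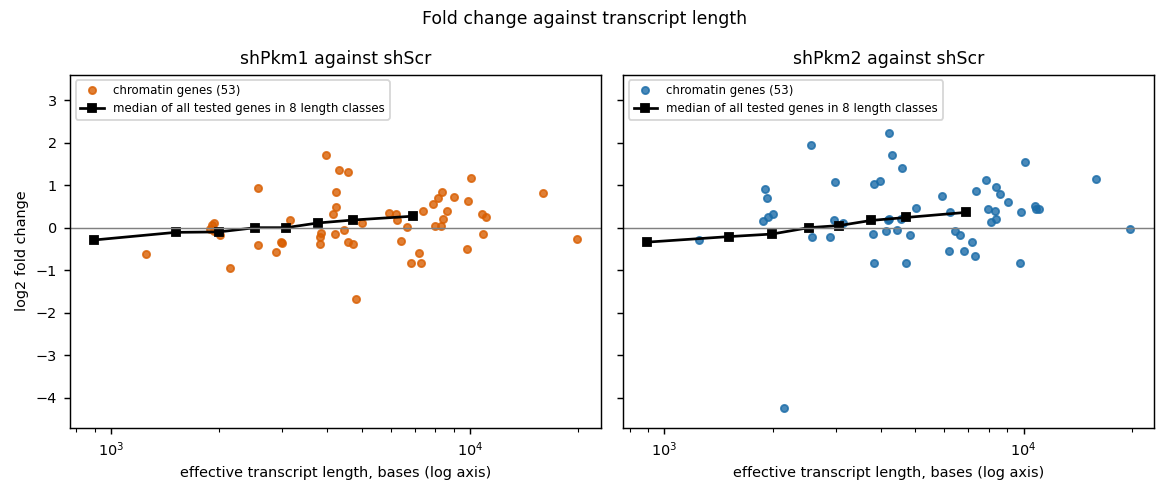
Log2 fold change against shScr by effective transcript length (log axis) for the 53 chromatin genes (circles) and the median of all tested genes in 8 length classes (black squares). The squares go from below 0 for short to above 0 for long transcripts in both comparisons, and most chromatin genes lie to the right, in the long classes.

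Single transcripts were tested as well. Among 33433 tested RefSeq transcripts, 227 belonged to the 53 genes, and no gene had 2 transcripts averaging at least 50 counts that were called in opposite directions in a contrast (0 of the 53 genes). The division of shared reads between transcripts rests on the authors' estimate, so this count is uncertain.

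Related genes outside the set were taken from lists. Of 64 other genes of these enzyme and remodeller families, not all of them shown to act on chromatin, 17 rose and 17 fell in shPkm1. In the shPkm2-labelled libraries 29 rose and 15 fell, and in the direct contrast 25 and 11, with medians of -0.06, 0.15 and 0.10. As shares these were 26.6% and 26.6%, 45.3% and 23.4%, and 39.1% and 17.2%, beside the 31.8% and 31.4%, 33.9% and 34.2%, and 25.7% and 27.3% of all tested genes given above, against which every list here is to be read. Of these, 22 genes of methyltransferase families gave 5 higher and 8 lower in shPkm1, then 8 and 6, then 7 and 2. Smyd1, the muscle-restricted methyltransferase, read 261 and 187 CPM in shScr, 58.7 and 58.4 CPM in shPkm1 and 2.82 and 3.24 CPM in the shPkm2-labelled libraries (-1.94 and -6.20, edgeR adjusted p 1.01e-07 and 1.23e-11). Smyd2 (1.23) and Kmt2e (1.15) rose most in shPkm1 and Kmt2e (1.30) most in the other group. Among 12 remodellers, 6 rose and 1 fell in shPkm1, then 10 and none, then 8 and 2. Hells, a remodeller needed for DNA methylation in dividing cells, read 4.5 and 6.72 CPM, 18 and 13.4 CPM, and 44.1 and 47.3 CPM (1.47 and 3.01, adjusted p 1.92e-05 and 7.64e-09). Among 8 acetyltransferases 4 rose and 1 fell, then 6 and 2, then 4 and 2, and Hat1, which acetylates new histone H4, was at 0.35, 1.60 and 1.26. Among 9 genes of the deacetylase families 1 rose and 4 fell, then 2 and 4, then 2 and 3. The tubulin deacetylase Sirt2 was at -0.84, -1.25 and -0.41, and Hdac6, which also acts on tubulin, was lower in shPkm1 (-0.53, adjusted p 0.000618) and higher in the shPkm2-labelled libraries (0.39, adjusted p 0.00415). Among 13 demethylases 1 rose and 3 fell, then 3 and 3, then 4 and 2, with Jmjd1c at 1.09 and 1.42 and Jmjd6 at -0.48 and -0.77.

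Partner subunits of the same complexes were measured too. Of 35, 13 rose and 7 fell in shPkm1, 17 and 6 in the shPkm2-labelled libraries, and 14 and 5 in the direct contrast, with medians of 0.18, 0.23 and 0.21; called in either direction were 57.1%, 65.7% and 54.3%, where 63.1%, 68.0% and 53.0% of all tested genes were. The PRC2 accessory subunit Phf19 was at 1.05 (edgeR adjusted p 0.000128) and 1.67 (adjusted p 9.63e-07) against shScr. Rbbp7, shared by PRC2 and NuRD, did not pass in shPkm1 (-0.02) and was at 0.77 (adjusted p 1.03e-05) in the other group. The Sin3 scaffolds went apart, Sin3a at 0.67 and 1.23 and Sin3b at -0.82 and -0.89, all with a call. Daxx, the chaperone that works with Atrx, was lower, from 78.9 and 74.3 CPM in shScr to 35.1 and 35.9 CPM in shPkm1 and 34.1 and 32.3 CPM in the shPkm2-labelled libraries (-1.11 and -1.21, adjusted p 7.07e-07 and 1.76e-07). A list of 10 histone kinases gave 5 higher and 2 lower, then 6 and 3, then 5 and 1, or 70%, 90% and 60% called. Its mitotic members Bub1 (which acts on H2A; 1.31, 3.10 and 1.79) and Aurkb (0.75, 2.05 and 1.29) were called in all contrasts, while Rps6ka5 (-1.33 and -1.36) and Dapk3 (-0.85 and -1.10) were lower than shScr in both.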

How the data were processed

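RNA-seq of 6 C2C12 libraries was analysed. The deposited table gives each transcript an estimated count, an FPKM and a TPM value per library, per the file headers; the submitters' processing notes name HISAT, StringTie, Bowtie, RSEM and DESeq2 and the build mm10, without roles. Another 9 columns, group means by the authors, were not used. Transcripts were summed per gene, and the estimated counts were rounded. 113 genes without a symbol held at most 0.148% of a library. The main test used edgeR 4.0.16 in R 4.3.3 (filterByExpr, TMM, quasi-likelihood F test over all 6 libraries, Benjamini-Hochberg adjustment, threshold 0.05). Code was tested on simulated data. Alternatives were DESeq2 1.42.0 (size factors, test), library totals, no filter, a mean of at least 50 counts, limma 3.58.1 on log2(FPKM + 1 or 0.1), only the groups compared, a replicate block, each library left out, and a length correction.

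The genes and lists were chosen with earlier results of these data known. All 54 genes are accounted for by role. Library values are given for Ezh1 and Ezh2, for the 6 largest rises and 6 largest falls per contrast among called genes averaging 50 counts or more whose groups do not overlap, and for genes called in opposite directions against shScr. Lists of related genes give up to 2 risen and 2 fallen; further ones (Rbbp7, Hdac6) were chosen after their values were seen.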

Additional observations from a re-analysis of the deposited data

Results flagged for a closer look

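Suv39h1 was called lower than shScr in shPkm1 and higher than shScr in the libraries labelled shPkm2, and the direct contrast of the hairpin groups passed the edgeR test with a log2 fold change of 1.43 (adjusted p 6.13e-07); it ranged from 1.39 to 1.56 over the alternatives. Kdm5b showed the opposite order, higher in shPkm1 and lower in the libraries labelled shPkm2, with a direct log2 fold change of -0.87 (adjusted p 9.10e-06) and a range of -0.97 to -0.67. Of the calls against shScr, the fall of Suv39h1 in shPkm1 and both calls of Kdm5b were lost under some alternatives, while the rise of Suv39h1 in the shPkm2-labelled libraries was kept under all that were run.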

How the results depend on the processing

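Leaving out 1 library at a time, with the lone library of a group assumed to vary like the others, gave 23 to 37 called genes in shPkm1 (23 without shPkm1 replicate 1), 29 to 39 in the shPkm2-labelled libraries and 20 to 41 in the direct contrast (23 without shPkm1 replicate 2, 20 without shPkm2 replicate 1). Library totals, each limma fit and the length correction each turned the sign of 19 of the 159 values (53 genes, 3 contrasts). Those with a call before or after the turn were, with library totals, Prmt1 0.03, Kdm1a 0.09 and Kdm4a 0.26 in the shPkm2-labelled libraries against shScr. With limma on log2(FPKM + 1) and log2(FPKM + 0.1), they were Prmt1 0.03 and 0.03, Kdm1a 0.10 and 0.10, Kdm4a 0.28 and 0.29, and Chd4 0.24 and 0.25 in the same comparison. With the length correction, they were Kmt2b -0.30, Kdm5a -0.08, Kdm6b -0.28, Chd8 -0.31 and Ep400 -0.16 in shPkm1, and Nsd1 -0.10, Chd8 -0.03, Ep400 -0.07 and Srcap -0.05 in the shPkm2-labelled libraries; the cause was not tested.

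Same-numbered replicates did not deviate together (r -0.026, 0.042 and 0.053 across genes), so they share only a number. A replicate block gave 34, 35 and 34 called genes and kept 103 of 107 calls. The exceptions were Ep400 in shPkm1 (adjusted p 0.0511), Kdm1a and Hdac3 in the shPkm2-labelled libraries (0.0615 and 0.0592) and Kat2b in the direct contrast (0.0512). Depth limits Suv39h2 and Hdac9 most, whose lowest libraries held 27 and 22 counts, and Smarca1, which was near 0.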
